A study of Mus musculus with 8 samples.

Results

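Of the 25239 genes in the count table, 10 are described here, the Toll-like receptors (TLRs) Tlr2, Tlr3, Tlr4, Tlr5 and Tlr9, the adaptor Myd88, the cytosolic receptors Nod1 and Nod2, the kinase Ripk2 and the sensor Nlrp6. They were chosen by name, as epithelial receptors for microbial products and their nearest partners, with earlier results of these data known. All 10 were found. In IECs of mice lacking CD1d, Nod2 fell to a mean normalised count of 49.6 ± 12.5 (SD, n = 4) from 118.8 ± 29.2 in wild-type (WT) IECs (SD, n = 4), which was 2.39-fold lower. Of the 9 genes with an adjusted p, Nod2 was the 1 gene that passed the threshold. The other receptors, Myd88, Ripk2 and Nlrp6 did not pass it, although the intervals of the scarcer ones were wide.

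Given the question of what the epithelium loses when CD1d and the natural killer T (NKT) cells that need it are absent, bulk RNA-seq was done on IECs sorted from proximal small intestinal crypts of 4 CD1d-KO mice (genotype CD1d1/2 KO) and 4 WT mice (C57BL/6Jax). The sorted cells were positive for EpCAM, an epithelial surface protein, and negative for CD45, CD31 and Ter119, which mark leukocytes, endothelium and erythroid cells. The mice were untreated, 7 to 10 weeks old and kept under specific pathogen-free conditions. In CD1d-KO mice the gene pair is missing from every cell, the epithelium included, so the loss of epithelial CD1d and the loss of NKT cells cannot be told apart here. The genotypes were not littermates, so genotype and any difference in gut microbes between the mice cannot be told apart either. The study used both sexes and states that they were matched between genotypes, but the labels do not give the sex of a sample, and summed Y-linked normalised counts were 5574 and 6946 in CD1d-KO 1 and 2 and at most 1.05 in the other 6 samples, all 4 WT samples among them.

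TLRs are membrane receptors that bind conserved microbial molecules such as lipopeptides, lipopolysaccharide, flagellin and nucleic acids, and most of them signal through the adaptor MyD88 to NF-kB. NOD1 and NOD2 are cytosolic receptors for fragments of the bacterial cell wall, and both pass the signal to the kinase RIPK2. In the small intestine NOD2 is best known from crypts, where it has been tied to Paneth cell defence and to stem cell survival, and loss-of-function variants of human NOD2 are linked to Crohn's disease.

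Total counts ranged from 23610266 to 31629435 per sample. The targeted gene Cd1d1 had normalised counts from 0 to 7.15 in CD1d-KO samples and from 61.1 to 91.1 in WT samples. The 9 epithelial markers examined (Epcam, Cdh1, Vil1, Cdx2 and others) had 0 called genes, and they summed to 324198 to 350965 in CD1d-KO and 315275 to 352867 in WT. Of the leukocyte markers 6 of 19 tested and of the stomach epithelium markers 6 of 11 were called lower in CD1d-KO samples, against 2.39% of all tested genes. Their values are given beside the members they touch. Within a genotype, every pair of samples differed by more than counting noise.

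Promoters in RefSeq (build GRCm38.p6) were available for 8 of the 10 genes, and 3 of them are shown, Nod2 as the gene that fell, Nod1 as its relative that did not pass the test, and Myd88 as the adaptor that most TLRs share. Each run holds the 250 bases before the RefSeq start, 5′ to 3′ on the strand of the gene. They lie at chr8:88647097-88647346 (plus strand) for Nod2, chr6:54972613-54972862 (minus strand) for Nod1 and chr9:119340019-119340268 (minus strand) for Myd88, and each ends next to the first base that the count table gives for the gene. Capitals mark matches, on either strand, to a pattern for NF-kB (GGG, any 5 bases, CC), for the interferon-stimulated response element (ISRE; GAAA, any 2 bases, GAAA) or for the gamma-activated site (GAS; TTC, any 3 bases, GAA).
Nod2: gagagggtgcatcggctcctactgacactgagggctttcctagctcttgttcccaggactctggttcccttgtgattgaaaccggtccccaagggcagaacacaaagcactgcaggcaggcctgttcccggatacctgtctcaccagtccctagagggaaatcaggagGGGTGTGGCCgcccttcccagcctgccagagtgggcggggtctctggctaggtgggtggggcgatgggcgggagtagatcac
Nod1: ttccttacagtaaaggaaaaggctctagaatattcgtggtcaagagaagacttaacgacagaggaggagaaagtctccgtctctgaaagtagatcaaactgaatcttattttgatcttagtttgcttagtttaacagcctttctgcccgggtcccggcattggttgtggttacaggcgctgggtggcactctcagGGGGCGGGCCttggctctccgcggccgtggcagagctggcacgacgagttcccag
Myd88: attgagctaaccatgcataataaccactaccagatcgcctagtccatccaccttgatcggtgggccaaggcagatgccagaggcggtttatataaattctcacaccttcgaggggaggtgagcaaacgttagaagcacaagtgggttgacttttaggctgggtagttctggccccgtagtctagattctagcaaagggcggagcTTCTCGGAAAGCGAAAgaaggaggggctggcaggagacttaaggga

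The Nod2 window held 1 match to the NF-kB pattern, which began 82 bases before the start, and the Nod1 window held 1, which began 55 bases before it. In Myd88 the capitals were an ISRE match 40 bases before the start that overlapped a GAS match at 46. NF-kB matches occurred in 5 of the 8 genes with a promoter entry, against 45.8% of 32851 promoter windows of the same length. The ISRE pattern, found in 1 of the 8, occurred in 2.98% of windows, and the GAS pattern, found in 2 of the 8 (Myd88 and a second start of Nod1), in 7.02%. A match is a run of letters, and no binding was measured.

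Levels were first compared between the 10 genes per exon length, as TPM (the share of a sample’s length-corrected counts). In WT IECs the order ran from Nlrp6 at 315.0 ± 18.5 TPM (SD, n = 4) through Myd88 at 49.6 ± 5.56, Tlr3 at 26.7 ± 0.714, Nod1 at 7.74 ± 1.21, Tlr2 at 7.33 ± 1.42, Ripk2 at 5.83 ± 1.08, Nod2 at 2.14 ± 0.540, Tlr5 at 0.692 ± 0.497 and Tlr4 at 0.284 ± 0.242 down to Tlr9 at 0.0879 ± 0.0121. The ranges of neighbours overlapped between Nod1 and Tlr2, between Tlr2 and Ripk2, and between Tlr5 and Tlr4. Within WT samples, the order of Nod1 and Tlr2 and that of Tlr2 and Ripk2 changed from sample to sample. Tlr5 was above Tlr4 in each WT sample. In WT samples 1 to 4 Tlr5 was at 0.361, 0.648, 1.41 and 0.351 TPM. Tlr4 was at 0.219, 0.131, 0.642 and 0.142 TPM in the same samples. These orders were not tested. Nlrp6 lay at or above 97.4% of genes with a count and Nod2 at or above 39.1%. In CD1d-KO IECs the order was the same except that Tlr2 (8.40 ± 1.01 TPM) stood above Nod1 (6.73 ± 1.25 TPM), again with overlapping ranges.

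**Figure D1:**
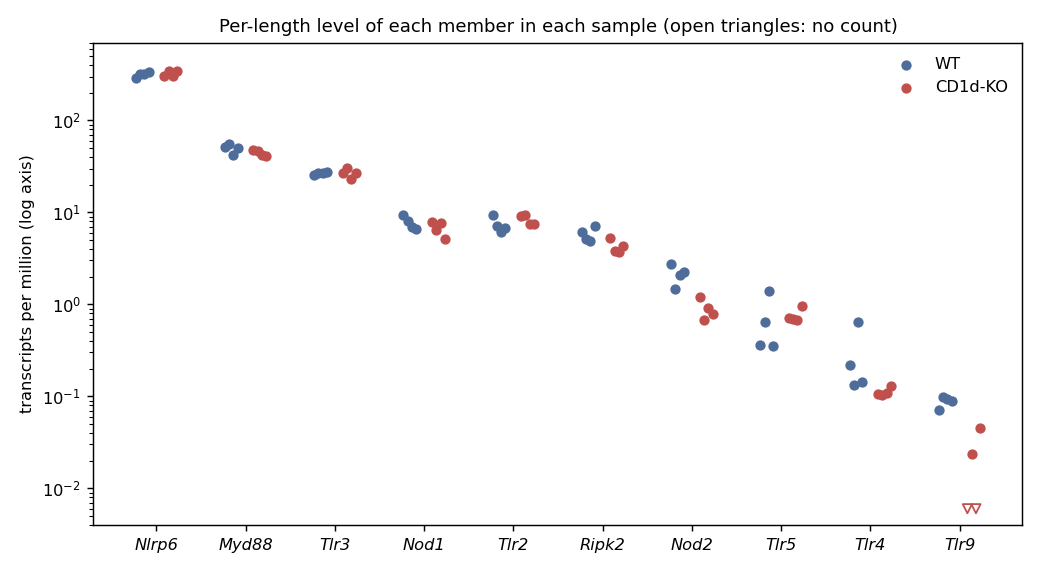
TPM (length-corrected share of the counts, log axis) of the 10 genes in each of 4 WT and 4 CD1d-KO samples, in the order of the WT means. Points run from Nlrp6 above 289.3 down to Tlr9 at or below 0.0995, and open triangles mark the 2 CD1d-KO samples without a Tlr9 count.

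Genotypes were then compared gene by gene on counts, with DESeq2 fitted to the whole table and p-values adjusted over 15383 genes. Of those genes 622, or 4.04%, were called at an adjusted p under 0.05, with 2.39% called lower in CD1d-KO and 1.66% higher. Among the members 9 had an adjusted p and 1 was called, Nod2. Nod2 averaged 84.2 normalised counts over the 8 samples, and 4.68% of the genes that averaged 50 or more were called. With edgeR, which calls 1.57% of genes, Nod2 was again the 1 member called. Values of the 2 genotypes did not overlap for 2 of the 9, Nod2 and Tlr4, against 9.63% of all tested genes (5.52% in the direction of lower CD1d-KO values). In 6 of the 9 the estimate was lower in CD1d-KO, against 49.7% of all tested genes. The median log2 fold change of the 9 was -0.16, and that of all tested genes was 0.001.

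**Figure D2:**
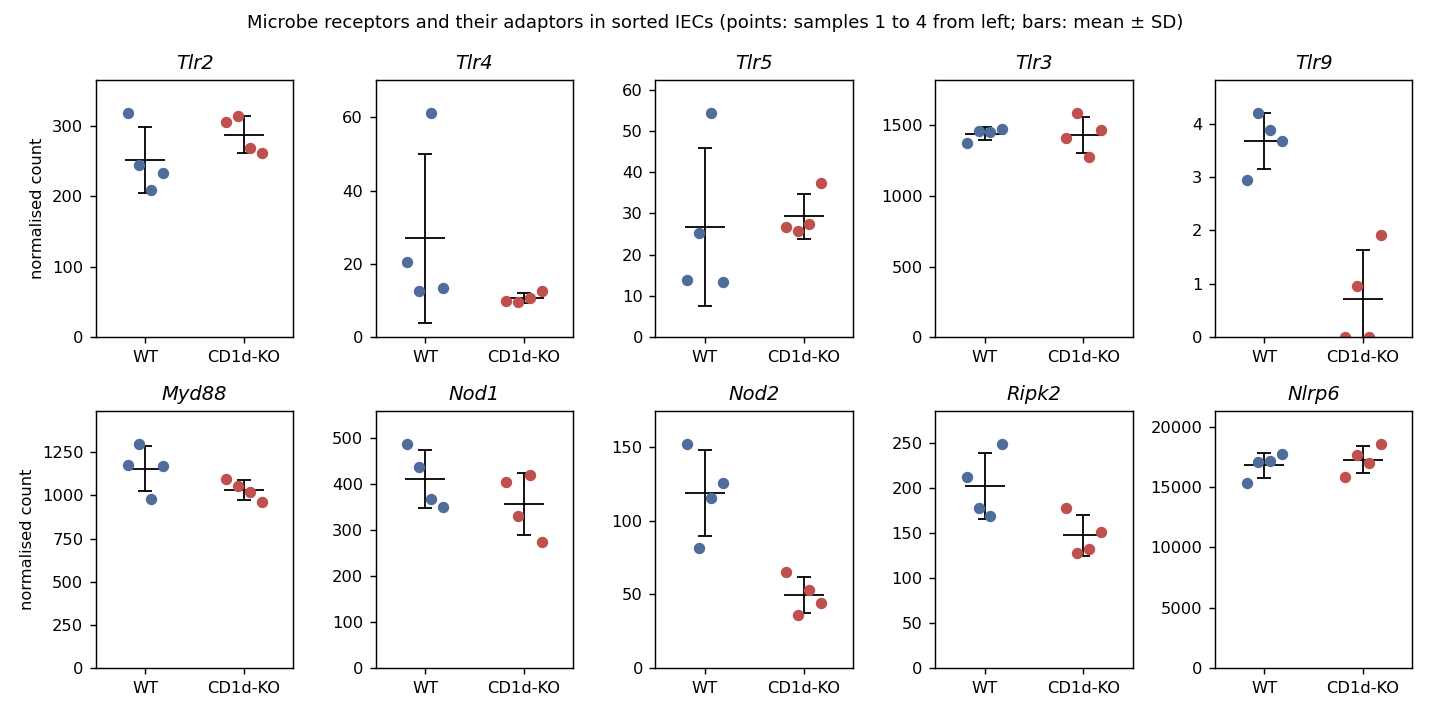
Normalised count of each member by sample, with the 4 WT samples in blue, the 4 CD1d-KO samples in red, and bars for mean ± SD. All CD1d-KO samples lie below all WT samples for Nod2 (highest 65.3, lowest WT 81.7), whereas 1 WT sample at 61.1 sets the WT mean of Tlr4.

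Nod2 (mm10 chromosome 8, 88647347 to 88688474, plus strand) encodes the receptor for muramyl dipeptide. Normalised counts of Nod2 in CD1d-KO samples 1 to 4 were 65.3, 36.2, 52.8 and 44.2, and those in WT samples 1 to 4 were 152.2, 81.7, 115.4 and 125.9. Every CD1d-KO sample lay below every WT sample, and the lowest WT value was 1.25 times the highest CD1d-KO value. The log2 fold change was -1.26 (SE 0.25, 95% interval -1.75 to -0.77), with a DESeq2 adjusted p of 5.54e-05. Nod2 was called in all 16 alternative fits, in which the log2 fold change ran from -1.42 to -1.11 and the adjusted p reached at most 0.0101, the value of edgeR's quasi-likelihood test. Raw counts behind these values ran from 38 to 73 in CD1d-KO and from 78 to 155 in WT. In the 6 samples with under 100 Y-linked normalised counts, the log2 fold change of Nod2 was -1.29 (DESeq2 adjusted p = 0.00205).

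In bulk samples, fewer cells of a type and less RNA per cell cannot be told apart, and Nod2 is also expressed by leukocytes. Of the 19 leukocyte markers tested, 18 had a lower estimate in CD1d-KO, against 49.7% of all tested genes. The 24 markers in the table summed to 958.9 to 1147.1 normalised counts in CD1d-KO and 1205.4 to 2603.6 in WT, and Cd4 was at 0 in all CD1d-KO samples. The leukocyte score, a mean of centred log2 values, was lower in CD1d-KO (CD1d-KO minus WT -1.03 on the log2 scale, exact two-sided permutation p = 0.0286, the smallest that 4 against 4 samples can give). Itgam alone made 678.4 to 847.6 of the CD1d-KO sums. Without it, a choice made after its values were seen, CD1d-KO samples 1 to 4 summed to 299.5, 313.4, 280.5 and 325.5, and WT samples 1 to 4 to 1434.3, 644.5, 407.2 and 361.9. Beside these sums, Nod2 counts were 65.3, 36.2, 52.8 and 44.2 in CD1d-KO samples 1 to 4. In WT samples 1 to 4 they were 152.2, 81.7, 115.4 and 125.9. Levels differed widely within the list. The macrophage genes Csf1r and Adgre1 reached at most 6.72 and 2.44 in any of the 8 samples, against 678.4 to 847.6 for Itgam in CD1d-KO. These genes do not stand for the list, of which 6 of 19 tested markers were called lower in CD1d-KO. The part of leukocytes in the Nod2 difference was not tested.

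Nod2 has also been placed in stem and Paneth cells, so their markers are given beside it. Stem cell markers (Lgr5, Olfm4 and 4 others) had 0 of 6 called, with a score 0.122 higher in CD1d-KO (exact permutation p = 0.314). Of the Paneth cell markers 3 of 8 were called, all higher in CD1d-KO, against 1.66% of all tested genes called higher. The Paneth cell score was 0.415 higher in CD1d-KO (exact permutation p = 0.114). Both score differences lay within the spread between samples, and the part of either cell type in the Nod2 difference was not tested.

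**Figure D3:**
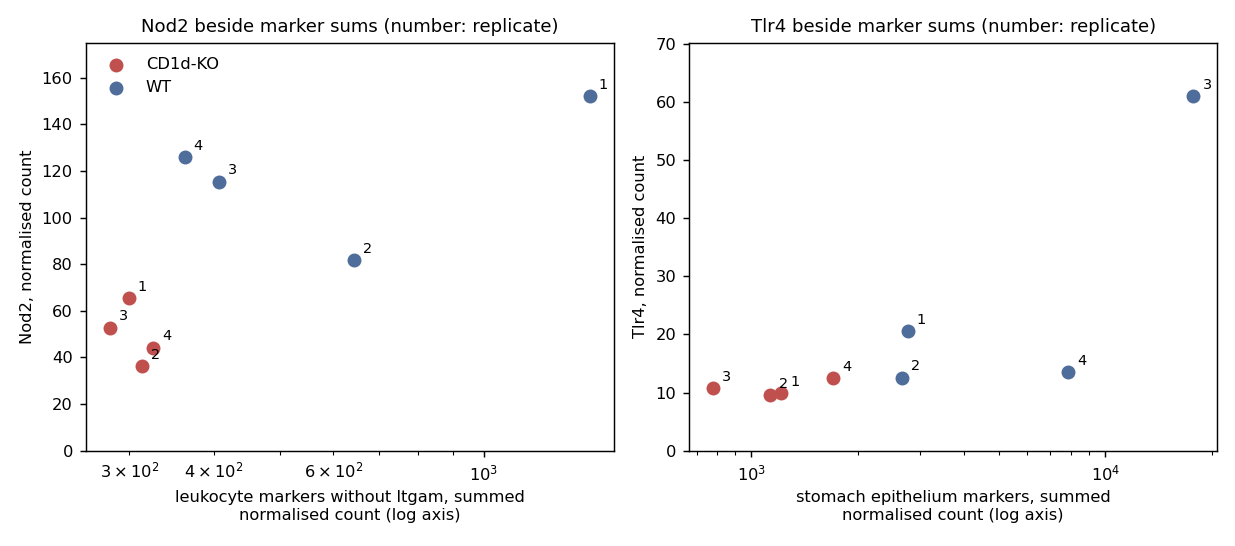
Normalised count of Nod2 against the summed leukocyte markers without Itgam, and of Tlr4 against the summed stomach epithelium markers, for 4 CD1d-KO (red) and 4 WT (blue) samples, with log horizontal axes. Leukocyte sums ran from 361.9 to 1434.3 in WT and from 280.5 to 325.5 in CD1d-KO. Nod2 counts ran from 81.7 to 152.2 in WT and from 36.2 to 65.3 in CD1d-KO. WT 3 stood apart in both Tlr4 (61.1) and stomach markers (17754).

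Ripk2 (chromosome 4, 16122741 to 16163643, minus strand) encodes the kinase that NOD1 and NOD2 share. CD1d-KO samples 1 to 4 had normalised counts of 177.9, 127.6, 132.0 and 150.7, against 212.1, 177.1, 168.7 and 248.2 in WT samples 1 to 4. CD1d-KO 1 lay just above the lowest 2 WT samples, and the other CD1d-KO samples lay below all WT samples. The log2 fold change was -0.45 (SE 0.17, 95% interval -0.78 to -0.12), and the DESeq2 adjusted p of 0.122 did not pass, with a range of 0.0668 to 0.4 over 16 alternatives. Its unadjusted p was under the threshold, as it was for 15.3% of all tested genes.

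Nod1 (chromosome 6, 54923942 to 54972612, minus strand), the receptor for peptidoglycan fragments that carry diaminopimelic acid, had normalised counts of 405.0, 330.5, 419.3 and 274.6 in CD1d-KO against 486.9, 437.0, 368.4 and 350.9 in WT samples. The genotypes overlapped, with CD1d-KO 1 and 3 above the lower WT samples, and the log2 fold change was -0.20 (SE 0.15, 95% interval -0.51 to 0.10, with DESeq2 adjusted p = 0.605). Set against Nod2 within each sample, per length, Nod1 was 6.50, 9.56, 8.32 and 6.51 times as abundant in CD1d-KO samples 1 to 4. In WT samples 1 to 4 the same ratio was 3.35, 5.60, 3.34 and 2.92. Ripk2 was 4.02 to 5.67 times as abundant as Nod2 in CD1d-KO and 2.24 to 3.48 times in WT, so both ratios were higher in every CD1d-KO sample than in any WT sample. These ratios are a description built on the Nod2 values above.

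Nlrp6 (chromosome 7, 140920902 to 140929192, plus strand) encodes a cytosolic sensor of the NOD-like family that is abundant in intestinal epithelium. Its normalised counts ran from 15870 to 18558 in CD1d-KO and from 15296 to 17720 in WT, with means of 17284 ± 1134 and 16805 ± 1048 (SD, n = 4 each). The genotypes overlapped across most of that span, and the log2 fold change was 0.04 (SE 0.07, 95% interval -0.10 to 0.18, with DESeq2 adjusted p = 0.876).

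Among the cell-surface TLRs, Tlr2 (chromosome 3, 83836272 to 83841608, minus strand), which recognises bacterial lipopeptides, had normalised counts of 305.8, 314.3, 268.8 and 262.1 in CD1d-KO against 318.1, 245.2, 208.4 and 233.5 in WT samples. WT 1 was the highest of all 8 and the other WT samples were the lowest 3. For Tlr2 the log2 fold change was 0.19 (SE 0.15, 95% interval -0.09 to 0.48, with DESeq2 adjusted p = 0.589).

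Tlr4 (chromosome 4, 66827551 to 66846581, plus strand), the receptor for lipopolysaccharide, was scarce, with normalised counts of 9.84, 9.52, 10.8 and 12.5 in CD1d-KO against 20.6, 12.6, 61.1 and 13.5 in WT samples. The genotypes did not overlap, but the lowest WT value was only 1.01 times the highest CD1d-KO value, and WT 3 was far above the rest. The log2 fold change was -1.35 (SE 0.55, 95% interval -2.42 to -0.28, with DESeq2 adjusted p = 0.165). Without WT 3 it was -0.55 (adjusted p = 0.729). WT 3 also had the highest sum of 12 stomach epithelium markers, 17754 against 2664 to 7843 in the other WT samples and 779.1 to 1704 in CD1d-KO samples, and the part of those cells in the Tlr4 value was not tested.

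Tlr5 (chromosome 1, 182954788 to 182976044, plus strand), the flagellin receptor, had normalised counts of 26.8, 25.7, 27.4 and 37.4 in CD1d-KO against 13.7, 25.1, 54.3 and 13.5 in WT samples. WT 3 was again the highest, and the WT samples lay on both sides of the CD1d-KO samples. The log2 fold change of 0.13 (SE 0.44, 95% interval -0.74 to 0.999, with DESeq2 adjusted p = 0.953) became 0.74 without WT 3. That interval covers both lower and higher levels in CD1d-KO, so no direction is given for Tlr5.

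Of the TLRs of endosomes, Tlr3 (chromosome 8, 45395665 to 45410619, minus strand), which binds double-stranded RNA, had normalised counts of 1279.5 to 1586 in CD1d-KO and 1375 to 1476 in WT. The WT range lay inside the CD1d-KO range, and the log2 fold change was -0.01 (SE 0.08, 95% interval -0.16 to 0.15, with DESeq2 adjusted p = 0.987).

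Tlr9 (chromosome 9, 106222598 to 106226876, plus strand), the receptor for unmethylated CpG DNA, was near the floor of 3 counts per library. Raw counts of Tlr9 were 0, 1, 0 and 2 in CD1d-KO against 3, 4, 4 and 3 in WT samples, so every CD1d-KO sample was below every WT sample. Summed, they were 3 against 14, a depth-corrected ratio of 0.193 with a counting interval of 0.0357 to 0.693. That interval covers counting error only and not the spread between mice. The main DESeq2 fit gave no adjusted p at this level (unadjusted p = 0.0579). Tlr9 was not called by DESeq2 without filtering (adjusted p = 0.43) or by edgeR's quasi-likelihood test (adjusted p = 0.294).

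Myd88 (chromosome 9, 119335934 to 119340018, minus strand), the adaptor of TLRs other than TLR3, had normalised counts of 1094, 1055, 1021 and 959.1 in CD1d-KO against 1179, 1297, 979.2 and 1169 in WT samples. CD1d-KO samples were below 3 of the 4 WT samples, and WT 3 fell among them. For Myd88 the log2 fold change was -0.16 (SE 0.10, 95% interval -0.35 to 0.02, with DESeq2 adjusted p = 0.43).

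**Figure D4:**
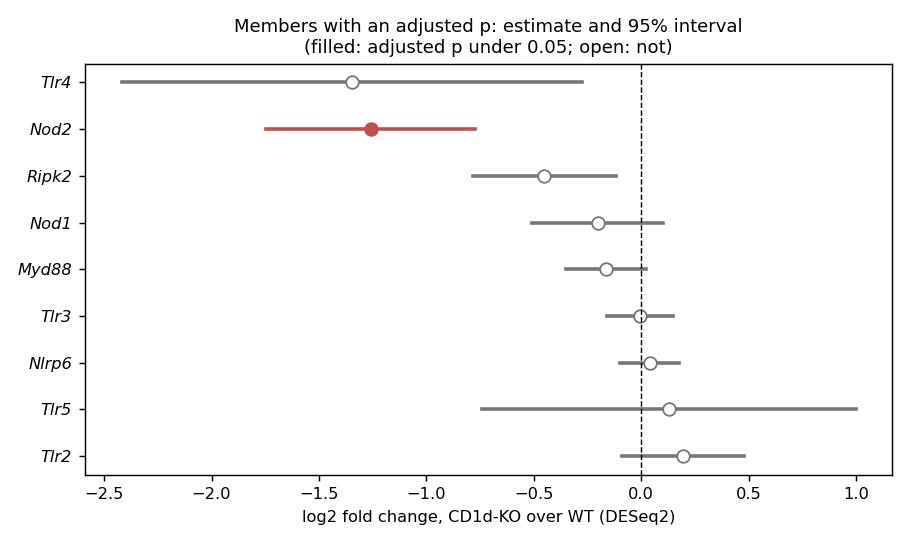
DESeq2 log2 fold change of CD1d-KO over WT with its 95% interval for the 9 members with an adjusted p, filled red where the adjusted p was under 0.05. Nod2 (-1.26) is the 1 filled point, and the widest intervals are those of Tlr4 (-2.42 to -0.28) and Tlr5 (-0.74 to 0.999).

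The rest of the machinery was read from 8 gene lists with 91 genes, of which 78 had an adjusted p. The lists were chosen with earlier results of these data known, so their shares of calls are a description and not a test. Among 61 tested genes of the 7 lists of receptors, partners and signalling genes, 9 were called, all lower in CD1d-KO (14.8%, against 2.39% of all tested genes called lower). Each list held 1 call or more, and the list medians lay between -0.32 and 0.02. In the 6 samples with under 100 Y-linked normalised counts, Tlr1, Ikbke, Card9, Tnfaip3 and Nlrp9b lost their calls (DESeq2 adjusted p from 0.0607 for Ikbke to 0.379 for Nlrp9b) in a fit with 2 fewer samples. Their log2 fold changes there were -0.36 for Tlr1, -0.32 for Ikbke, -1.03 for Card9, -0.34 for Tnfaip3 and -0.39 for Nlrp9b. Unc93b1, Cd14, Lbp and Sting1 kept their calls. With a Y-linked term on all 8 samples, Tlr1, Card9, Tnfaip3 and Nlrp9b also lost their calls (DESeq2 adjusted p = 0.164, 0.14, 0.071 and 0.346). Ikbke kept its call in that fit (DESeq2 adjusted p = 0.031).

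Of the 7 other TLR genes only Tlr1 and Tlr6 had an adjusted p. Tlr1, which pairs with TLR2, had normalised counts of 303.4 to 385.1 in CD1d-KO and 421.3 to 465.8 in WT, with no overlap. The log2 change of Tlr1 was -0.41 (SE 0.10, with DESeq2 adjusted p = 0.00544), and 10 of 16 alternatives called it. Tlr6, the other partner of TLR2, averaged 4.95 in CD1d-KO and 3.61 in WT (DESeq2 adjusted p = 0.895), and is named here after its values were seen, as are the 5 that follow. Tlr7, Tlr8, Tlr11, Tlr12 and Tlr13 had no adjusted p, and their mean normalised counts were at most 3.07 in either genotype.

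Coreceptors and chaperones had the most calls among these 7 lists, 3 of 6 tested, with a median log2 fold change of -0.32. Unc93b1, which carries nucleic-acid TLRs from the endoplasmic reticulum to endosomes, had normalised counts of 1110 to 1186 in CD1d-KO and 1513 to 1593 in WT. Its groups stood clear of each other, with a log2 fold change of -0.45 (SE 0.06, with DESeq2 adjusted p = 1.05e-10) and a call in 16 of 16 alternatives. Cd14, a coreceptor for lipopolysaccharide, averaged 262.1 ± 59.2 in CD1d-KO and 413.9 ± 80.6 in WT (SD, n = 4 each; DESeq2 adjusted p = 0.00938). Cd14 lost its call with edgeR (adjusted p = 0.0658) and without WT 1. Lbp, the lipopolysaccharide binding protein, averaged 31.3 ± 12.6 against 64.4 ± 12.3 (DESeq2 adjusted p = 0.0317), with a call in 9 of 16 alternatives.

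Downstream of the receptors, 1 of 16 tested TLR adaptors and kinases was called. This was Ikbke, a kinase related to TBK1 that acts in interferon induction, with means of 1907 ± 108 in CD1d-KO and 2381 ± 168 in WT (log2 fold change -0.32, SE 0.07, with DESeq2 adjusted p = 0.00122). The kinase scaffold gene Tab2 had the next most extreme statistic, in the other direction (log2 fold change 0.13, SE 0.06, with DESeq2 adjusted p = 0.191). Among partners of the NOD receptors 1 of 9 was called, Card9, an adaptor linked to NOD2 signalling in myeloid cells. Card9 counts were 33.1, 33.3, 49.9 and 25.0 in CD1d-KO against 107.0, 63.9, 82.4 and 51.4 in WT samples, without overlap (log2 fold change -1.12, SE 0.30, with DESeq2 adjusted p = 0.00879), and 10 of 16 alternatives called it. The leukocyte sums given beside Nod2 apply to Card9 and Cd14 as well, and their part was not tested.

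Brakes on the pathway had 1 call of 8 tested, Tnfaip3, the NF-kB target that encodes the ubiquitin-editing enzyme A20. Tnfaip3 averaged 879.1 ± 79.1 in CD1d-KO and 1131 ± 81.0 in WT (log2 fold change -0.36, SE 0.09, with DESeq2 adjusted p = 0.00322). Inflammasome sensors and partners had 1 call of 13, Nlrp9b (log2 fold change -0.53, SE 0.17, with DESeq2 adjusted p = 0.0425), whose genotypes overlapped and which 5 of 16 alternatives called. Casp4, known as caspase-11 and a sensor of cytosolic lipopolysaccharide, had a log2 fold change of -0.35 (SE 0.12, with DESeq2 adjusted p = 0.0612). Cytosolic RNA and DNA sensors had 1 call of 7, and all 7 had lower estimates in CD1d-KO, against 49.7% of all tested genes. Sting1, the adaptor of cytosolic DNA sensing, averaged 89.6 ± 26.4 against 168.9 ± 25.3 (log2 fold change -0.91, SE 0.22, with DESeq2 adjusted p = 0.00177) and was called in 16 of 16 alternatives. Zbp1, a sensor of Z-form nucleic acid, had a log2 fold change of -0.84 (SE 0.28, with DESeq2 adjusted p = 0.0566).

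**Figure D5:**
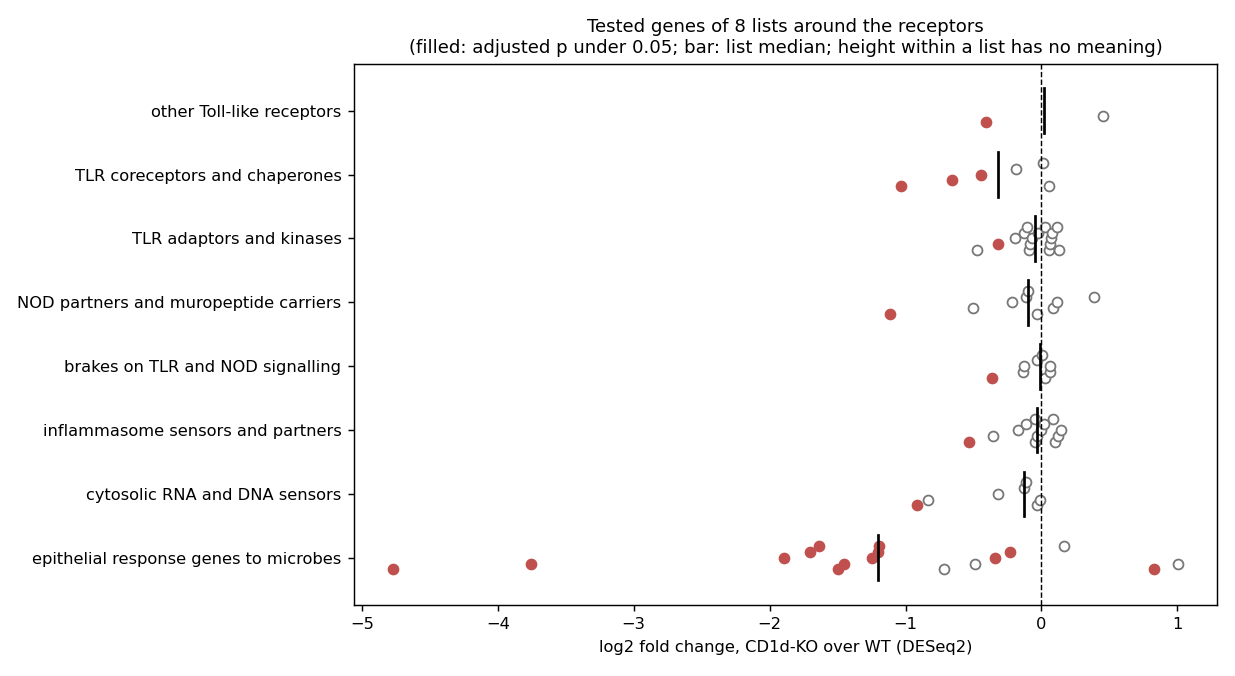
DESeq2 log2 fold change of CD1d-KO over WT for the 78 tested genes of 8 lists, filled red where the adjusted p was under 0.05, with a bar at each list's median. The medians of the first 7 lists lie near 0, between -0.32 and 0.02, whereas that of the genes that respond to microbes is -1.20.

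The last list held genes that epithelium is known to raise in contact with microbes, such as antimicrobial proteins and oxidases. Of its 17 tested genes 13 were called, 12 lower in CD1d-KO and 1 higher, against 4.04% of all tested genes called, and its median log2 fold change was -1.20. This list too was chosen with earlier results of these data known, so its share is a description. Leukocyte and stomach epithelium markers were lower in the same samples (score differences of -1.03 and -4.67 on the log2 scale, exact permutation p = 0.0286 each), and their part in these genes was not tested. In the 6 samples with under 100 Y-linked normalised counts, Reg3b, Reg3g, Fut2 and Lcn2 lost their calls (DESeq2 adjusted p = 0.129, 0.0546, 0.147 and 0.173), with log2 fold changes of -1.17, -1.10, -0.72 and -1.91. With a Y-linked term on all 8 samples, Reg3b, Fut2 and Lcn2 lost their calls (DESeq2 adjusted p = 0.0642, 0.157 and 0.155). Reg3g kept its call in that fit (DESeq2 adjusted p = 0.0181). Nos2, the inducible nitric oxide synthase, averaged 639.9 ± 168 in CD1d-KO and 2373 ± 553 in WT (log2 fold change -1.89, SE 0.25, with DESeq2 adjusted p = 5.18e-11). Duox2 and its maturation factor Duoxa2, which make hydrogen peroxide at the cell surface, had log2 fold changes of -1.20 and -1.64 (DESeq2 adjusted p = 2.21e-12 and 1.12e-13), and with Nos2 and Ccl20 they were called in 16 of 16 alternatives. Ccl20, a chemokine that NF-kB induces, had normalised counts of 23.5 to 60.8 in CD1d-KO and 98.9 to 134.5 in WT (log2 fold change -1.50, SE 0.26, with DESeq2 adjusted p = 2.52e-06). Nfkbia, which encodes an inhibitor of NF-kB and is itself an NF-kB target, had a log2 fold change of -0.34 (SE 0.10, with DESeq2 adjusted p = 0.019) and was called in 10 of 16 alternatives. The antimicrobial lectins of the Reg3 family did not all move one way. Reg3b averaged 16901 ± 5496 in CD1d-KO and 46298 ± 16237 in WT (log2 fold change -1.45, SE 0.34, with DESeq2 adjusted p = 0.00177), and Reg3g 15097 ± 2582 against 35812 ± 10750 (log2 fold change -1.25, SE 0.25, with DESeq2 adjusted p = 7.22e-05). Reg3a was the gene of the list that rose, from 1595 ± 257 in WT to 2833 ± 670 in CD1d-KO (log2 fold change 0.83, SE 0.16, with DESeq2 adjusted p = 3.01e-05).

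The genes whose pattern over the 8 samples was most like Nod2 were sought among 11719 tested genes that averaged 50 or more normalised counts. By Pearson's r of log2 normalised counts they were Med30 (0.971), 5830417I10Rik (0.967) and Tmem129 (0.963). Med30 averaged 411.4 in CD1d-KO and 501.8 in WT. For Ripk2 they were Nle1 (0.958), Mrps28 (0.957) and Kmt2d (0.956), and Kmt2d had a log2 fold change of -0.35 (DESeq2 adjusted p = 0.000839). The 8 points share their libraries and their split by genotype, and the values are a description.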

How the data were processed

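The study's samples were 8 poly(A) RNA libraries of sorted IECs, 4 CD1d-KO and 4 WT, grouped by their labels. The deposited file held unnormalised fragment counts for each gene, which per the file headers came from featureCounts 1.6.4 on read pairs over exons, with primary alignments, without strand, and with an mm10 annotation. The study's methods name HISAT2 and GRCm39, and coordinates given here are those of the table. Counting used no strand, so reads from antisense transcripts could not be told apart, but no exon of the 10 genes overlapped one of another listed gene.

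Of 25239 genes 19088 had a count, and 0 per-sample columns were left unused. Counts were compared with DESeq2 1.42.0 (R 4.3.3; genotype as the only term; Wald test), the tool of the study's methods, with Benjamini-Hochberg adjustment over the 15383 genes that passed independent filtering, with 3705 left without an adjusted p. An adjusted p under 0.05 was called. Normalised counts are divided by DESeq2 size factors. TPM was computed from the counts and the deposited exon lengths. Marker scores used log2(normalised count + 1) centred on each gene, compared by exact permutation (scipy 1.17.1). The fits were tested on simulated data. P-values measure the spread between these 8 mice. Sex and experiment were not in the labels. The reads carried no molecular identifiers, so counting intervals cover counting error only.

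Alternatives were edgeR's quasi-likelihood test (4.0.16), other size factors, a filter of 10 counts in 4 samples, no filtering, a replicate block, Y-linked counts as a term or a selection, and leaving out each sample, 16 fits in all. Members and lists were chosen with earlier results of these data known. From each list, the called genes and the 2 with the most extreme statistic could be named, and likeness to the 2 members with the smallest p was ranked by Pearson's r.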

Additional observations from a re-analysis of the deposited data

Results flagged for a closer look

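In groups of 4 samples, a sample was set apart when its gap to the next, as a share of the group's range, exceeded Dixon's critical value at the 95% level. Of 64 groups tested, 5 had such a sample, and chance alone sets apart about 1 in 20. Tlr4 was highest in WT 3, with a normalised count of 61.08, the library that also had the highest stomach marker sum. Tlr5 was highest among CD1d-KO samples in CD1d-KO 4, at 37.44. In WT 4, 2 genes that respond to microbes stood lowest of the WT samples, Duoxa2 at 393.7 and Reg3b at 21981.5, and both values lay nearer to the CD1d-KO samples (Duoxa2 212.2 to 245.9, Reg3b 12221 to 24740), whereas Nod2 in WT 4 was the second highest of the WT samples. Reg3b in CD1d-KO 3 exceeded the WT 4 value. Saa1 was at 0 in CD1d-KO 2, against 3.58 to 3.91 in the other CD1d-KO samples, all near the floor of 3 counts per library. Between genotypes Saa1 was called lower in CD1d-KO (log2 fold change -4.77, SE 0.98, with DESeq2 adjusted p = 0.000137).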

How the results depend on the processing

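Under all 16 alternatives 1 member was called, and it was Nod2. The count of all called genes, 622, was 299 with edgeR, 371 in the 6 samples with under 100 Y-linked normalised counts (all but CD1d-KO 1 and 2) and 323 to 645 when a sample was left out, with 323 without CD1d-KO 2, 409 without WT 1 and 385 without WT 2. The 6-sample fit and the leave-out fits used fewer samples. Without CD1d-KO 3 and without CD1d-KO 4, 645 and 600 genes were called. A Y-linked term on all 8 samples gave 419. The cause of these differences was not tested. Pairing by replicate number was not shown, and 8 samples are too few to exclude it. Same-number correlations of deviations ran from -0.031 to 0.202, and 3 of 8 samples correlated best with their own number. With the replicate block 572 genes were called and Nod2 stayed among them. The leukocyte score difference was -0.976 in the 6 samples with under 100 Y-linked normalised counts (exact permutation p = 0.133, the smallest possible) and -1.317 to -0.626 when a sample was left out (exact permutation p = 0.0571 each, the smallest possible), so these tests could not pass. Estimates near 0 changed sign when a sample was left out, in ranges of -0.058 to 0.044 for Tlr3, -0.094 to 0.744 for Tlr5 and -0.003 to 0.081 for Nlrp6. Tlr4, Tlr5 and Tlr9 had mean normalised counts under 30 in both genotypes. For Tlr4 and Tlr5 the spread between WT samples was also wide (means of 26.93 and 26.66 with SDs of 23.05 and 19.21).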
